A study of Mus musculus with 24 samples.

Results

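The genes described here are the ionotropic and metabotropic receptors for glutamate and GABA. They were chosen by symbol from the protein-coding genes of the annotation: Gria (AMPA receptors), Grin followed by a digit (NMDA receptors), Grik (kainate receptors), Grid with only a digit after it (delta receptors), Grm followed by a digit (metabotropic glutamate receptors), Gabra, Gabrb, Gabrg, Gabrd, Gabre, Gabrq and Gabrr (GABA-A receptors) and Gabbr (GABA-B receptors). This gave 46 of the 50686 genes in each table: 4 AMPA, 7 NMDA, 5 kainate, 2 delta and 8 metabotropic glutamate receptor genes, with 18 GABA-A and 2 GABA-B receptor genes. Of the 46, 44 had enough counts to be tested. The others, Grm6 (the metabotropic receptor of retinal ON bipolar cells) and Gabrr3 (a GABA-A subunit), had at most 3 and 5 counts in any library.

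Ionotropic glutamate receptors are multi-subunit channels that depolarise neurons, and metabotropic glutamate receptors act through G proteins. GABA-A receptors are multi-subunit chloride channels and GABA-B receptors are G-protein coupled dimers of Gabbr1 and Gabbr2 products. In the rodent hindbrain and cerebellum several of these families change subunits after birth: Grin2b gives way to Grin2a and, in granule neurons, to Grin2c, while Gabra2, Gabra3 and Gabra5 recede and, in granule neurons, Gabra6 and Gabrd come up.

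RNA was measured by TruSeq stranded mRNA sequencing of tissue labelled back left brain, from C57BL/6 mice of both sexes at day 10 and day 20. The mutants were Pank1-/- Syn-Pank2-/- double knockouts (dKO) and the controls were wild type (WT), and no other allele or agent is named for either. Pank1 and Pank2 encode pantothenate kinases, the enzymes that open coenzyme A synthesis. The labels do not say what Syn stands for, from what point days are counted, or whether each library is a separate animal. The tests therefore weigh differences against the spread of these libraries, which may be partly technical. Genotype, sex and day gave 8 groups of 3 libraries, which the labels do not number. Replicate numbers were given here in accession order, serve only as names and pair no libraries. After 1 library was left out for its total of 45964 gene counts (named dKO male day 10 replicate 3 here), there were 5 dKO and 6 WT libraries at day 10, and 6 dKO and 6 WT libraries at day 20.

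The 23 libraries used held 9.19 to 44.7 M gene counts (M, 1000000), where 1 count was 0.0216 to 0.103 CPM (counts of a gene per 1000000 gene counts of the library, after TMM scaling of the library total). Pank1 was 8.12 ± 0.668 CPM in dKO and 22.7 ± 1.63 CPM in WT at day 10 (SD, n = 5 and 6), and 7.49 ± 0.464 CPM in dKO and 22.7 ± 2.33 CPM in WT at day 20 (SD, n = 6 each). Pank2 was 42.0 ± 3.16 CPM in dKO and 56.4 ± 3.31 CPM in WT at day 20, and its day 10 ranges overlapped, at 44.5 to 52.0 CPM in dKO and 46.3 to 56.3 CPM in WT. The libraries dKO female day 10 replicate 2 and dKO male day 10 replicate 2 stood apart at day 10 in regional markers. The 9 cerebellar granule neuron markers summed to 1320 and 582 CPM in these 2, against 1945 to 2292 CPM in the 3 other dKO libraries and 1637 to 3403 CPM in WT. The 9 Purkinje cell markers summed to 883 and 683 CPM, against 1444 to 2078 CPM in the 3 other dKO libraries and 1265 to 3387 CPM in WT. In the male library of the pair the hindbrain genes Hoxb3 and Hoxb5 had 0 counts and Tcf7l2, a thalamic marker, was 102 CPM, against 15.5 to 44.6 CPM elsewhere. WT male day 10 replicate 1 also had little Hoxb5, 0.0901 CPM, beside the highest granule neuron and Purkinje sums of day 10. In the female library Hoxb3 was 16.6 CPM, against at most 11.6 CPM elsewhere. At day 20 both sums overlapped between genotypes, at 2507 to 3133 CPM in dKO and 2167 to 3219 CPM in WT for granule neuron markers, and 3132 to 3522 CPM in dKO and 2792 to 3926 CPM in WT for Purkinje markers. In such bulk tissue, fewer cells of a type and less RNA per cell cannot be told apart.

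Per kilobase of exon (CPM per kb, the scale used here to compare levels between genes), Gabra6, a subunit typical of cerebellar granule neurons, was the highest of the 46 genes at day 20, at 107 ± 15.8 in dKO and 136 ± 19.3 in WT (SD, n = 6 each). Gabbr1 followed at 77.2 ± 2.09 in dKO and 76.3 ± 1.73 in WT, and Gria4 came next at 60.0 ± 3.17 in dKO and 66.0 ± 4.15 in WT. At day 10 Gabbr1 was the highest, at 76.5 ± 11.5 in dKO and 72.8 ± 2.68 in WT (SD, n = 5 and 6). Grm6 and Gabrr3 were lowest in all 4 combinations of genotype and day, at 0.0195 CPM per kb or less.

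At day 20, 5 receptor genes rose and 6 fell in dKO relative to WT (edgeR quasi-likelihood test, Benjamini-Hochberg adjusted p under 0.05 over 21657 genes). That is 11 of 44, or 25%, against a background of 38.0% of all genes called in the same comparison (18.8% higher and 19.2% lower). Genes that rose were Gabrr2, Grik5, Grik4, Gria2 and Grin1. Those that fell were Gabra2, Grm3, Gabra4, Grm2, Gria1 and Gabrb1. The median of the absolute log2 change was 0.13 over the 44 genes and 0.22 over all genes tested. Among them, 4 (Gabra2, Grm3, Gabra4 and Grin1) had no overlap between the 6 dKO and the 6 WT libraries. The share of all genes without overlap was not counted, so this describes those genes only. When only the day 20 groups were fitted, 22 of 44 were called, against 47.5% of all genes. Genes called there and not in the fit of all groups included Gabra6, Gabrb2, Gabrq, Gria4, Grik2, Grik3, Grin2a, Grin2c, Grin3a and Grm5. Genes said below not to pass at day 20 did not pass in the fit of all groups.

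Within the AMPA receptors, 2 subunits moved in opposite directions. Gria2 encodes the subunit whose edited form keeps AMPA receptors from passing calcium. Its level was 625, 729 and 741 CPM in dKO females and 764, 770 and 745 CPM in dKO males, against 605, 613 and 620 CPM in WT females and 627, 529 and 575 CPM in WT males. The 5 highest libraries were all dKO, and only dKO female replicate 1 lay within the WT range. Gria2 rose 1.23-fold (log2 change 0.29 ± 0.05 SE, edgeR adjusted p = 6.63e-05). Gria1, a subunit whose homomeric channels pass calcium, was 250, 299 and 284 CPM in dKO females and 251, 262 and 270 CPM in dKO males, against 334, 346 and 317 CPM in WT females and 336, 297 and 314 CPM in WT males. The genotypes overlapped in 1 library each, and Gria1 fell by 0.27 on the log2 scale (SE 0.06, edgeR adjusted p = 0.00132). Gria3 and Gria4, the other two pore-forming subunits, did not pass, with log2 changes of 0.07 and -0.14.

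Grin1, the subunit that every NMDA receptor needs, was 346, 377 and 371 CPM in dKO females and 406, 390 and 393 CPM in dKO males, against 327, 333 and 345 CPM in WT females and 306, 302 and 296 CPM in WT males. Every dKO library was above every WT library, by a narrow margin between the females (346 against 345 CPM), and Grin1 rose (log2 change 0.26 ± 0.04 SE, edgeR adjusted p = 5.27e-05). An antisense gene, Grin1os, overlaps 13.47% of the Grin1 exons on the opposite strand. Counting without regard to strand kept the Grin1 call. None of the 6 other NMDA subunits passed in the fit of all groups. Grin2c ranged from 221 to 331 CPM in dKO, against 153 to 229 CPM in WT, with overlap. It was called when only the day 20 groups were fitted (log2 change 0.47, edgeR adjusted p = 1.58e-05). That fit also called Grin2a and Grin3a, with log2 changes of -0.11 and -0.18 (edgeR adjusted p = 0.0300 and 0.00808). In the fit of all groups the nearest by p was Grin3b, with a log2 change of -0.48 (adjusted p = 0.0904), whose exons overlap the opposite-strand gene Tmem259 over 32.13% of their length.

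Kainate receptors of the high-affinity kind, Grik4 and Grik5, both rose. Their products form channels only together with those of Grik1, Grik2 or Grik3. Grik4 had a lowest, median and highest level of 21.5, 25.2 and 26.6 CPM in dKO, against 18.7, 19.8 and 21.8 CPM in WT, and 1 dKO library lay within the WT range. Its log2 change was 0.30 ± 0.08 (SE, edgeR adjusted p = 0.00486). For Grik5 the same 3 values were 72.8, 95.5 and 110 CPM in dKO and 65.6, 72.8 and 84.7 CPM in WT, with a log2 change of 0.34 ± 0.08 (SE, edgeR adjusted p = 0.00286). Its 3 dKO males, at 93.5 to 110 CPM, lay above all WT libraries, while the female groups overlapped. The low-affinity subunits Grik1, Grik2 and Grik3 did not pass, at log2 changes of 0.10, 0.20 and 0.12. Neither did the delta receptors, which bind cerebellins at synapses, with a log2 change of 0.08 for Grid1.

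Both group II metabotropic receptors, which couple to Gi and lower cAMP, fell. Grm3, found in astrocytes as well as neurons, was 28.5, 29.5 and 31.0 CPM in dKO females and 22.9, 23.9 and 27.6 CPM in dKO males, against 43.6, 34.5 and 35.2 CPM in WT females and 40.4, 45.6 and 36.4 CPM in WT males. All dKO libraries lay below all WT libraries and the level fell 1.45-fold (log2 change -0.53 ± 0.15 SE, edgeR adjusted p = 0.00792). Grm2 had a lowest, median and highest level of 8.91, 10.2 and 12.9 CPM in dKO and 11.7, 12.4 and 14.2 CPM in WT, with overlap (log2 change -0.28 ± 0.10 SE, edgeR adjusted p = 0.0317). The Grm2 call was lost in 6 of the 23 fits that each left out 1 library, with the highest adjusted p, 0.0892, without dKO male day 20 replicate 1. The group I gene Grm5 and the tested group III genes (Grm4, Grm7 and Grm8) did not pass, with log2 changes between -0.36 and -0.07.

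Among GABA-A receptor genes, Gabra2, Gabra4 and Gabrb1 fell and Gabrr2 rose. Gabra2, an alpha subunit that is abundant in the young brain, was 21.0, 25.1 and 25.6 CPM in dKO females and 14.7, 17.8 and 17.1 CPM in dKO males, against 35.7, 32.0 and 26.9 CPM in WT females and 36.9, 37.4 and 29.8 CPM in WT males. The ranges did not meet in either sex, and the males differed more than the females. Over both sexes Gabra2 fell 1.67-fold (log2 change -0.74 ± 0.08 SE, edgeR adjusted p = 1.72e-07), and this call held in all 34 alternative fits. Gabra4, an alpha subunit that pairs with the delta subunit outside synapses, was 17.3, 22.8 and 24.9 CPM in dKO and 25.1, 28.8 and 30.0 CPM in WT (lowest, median and highest). It fell 1.28-fold without overlap (log2 change -0.36 ± 0.07 SE, edgeR adjusted p = 0.00042).

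Gabrb1, a beta subunit, was 91.2, 112 and 129 CPM in dKO and 125, 128 and 146 CPM in WT (lowest, median and highest). Its log2 change of -0.27 ± 0.10 (SE, edgeR adjusted p = 0.0356) was lost in 9 of the 23 fits that each left out 1 library, up to an adjusted p of 0.0887 without dKO male day 20 replicate 1. Gabrr2 encodes a GABA-A subunit of a kind best known from retina. It was low in all libraries, with 27 to 167 counts in dKO and 24 to 81 counts in WT. Its level was 6.48, 2.48 and 1.78 CPM in dKO females and 7.15, 5.25 and 6.03 CPM in dKO males, against 1.58, 1.67 and 1.29 CPM in WT females and 2.01, 1.96 and 0.859 CPM in WT males. The 3 dKO males were all above 5 CPM and no WT library was above 2.01 CPM, while 1 dKO female lay within the WT range. Gabrr2 rose 3.04-fold (log2 change 1.60 ± 0.27 SE, edgeR adjusted p = 9.89e-05), a call that also held in all 34 alternatives. A list of 7 retinal rod bipolar markers, of which 4 were tested and 1 was higher, summed to 4.03 to 6.02 CPM in dKO and 4.88 to 5.94 CPM in WT. The GABA-B genes Gabbr1 and Gabbr2 had log2 changes of 0.02 and -0.02 (SE 0.05 and 0.06) and did not pass.

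**Figure D1:**
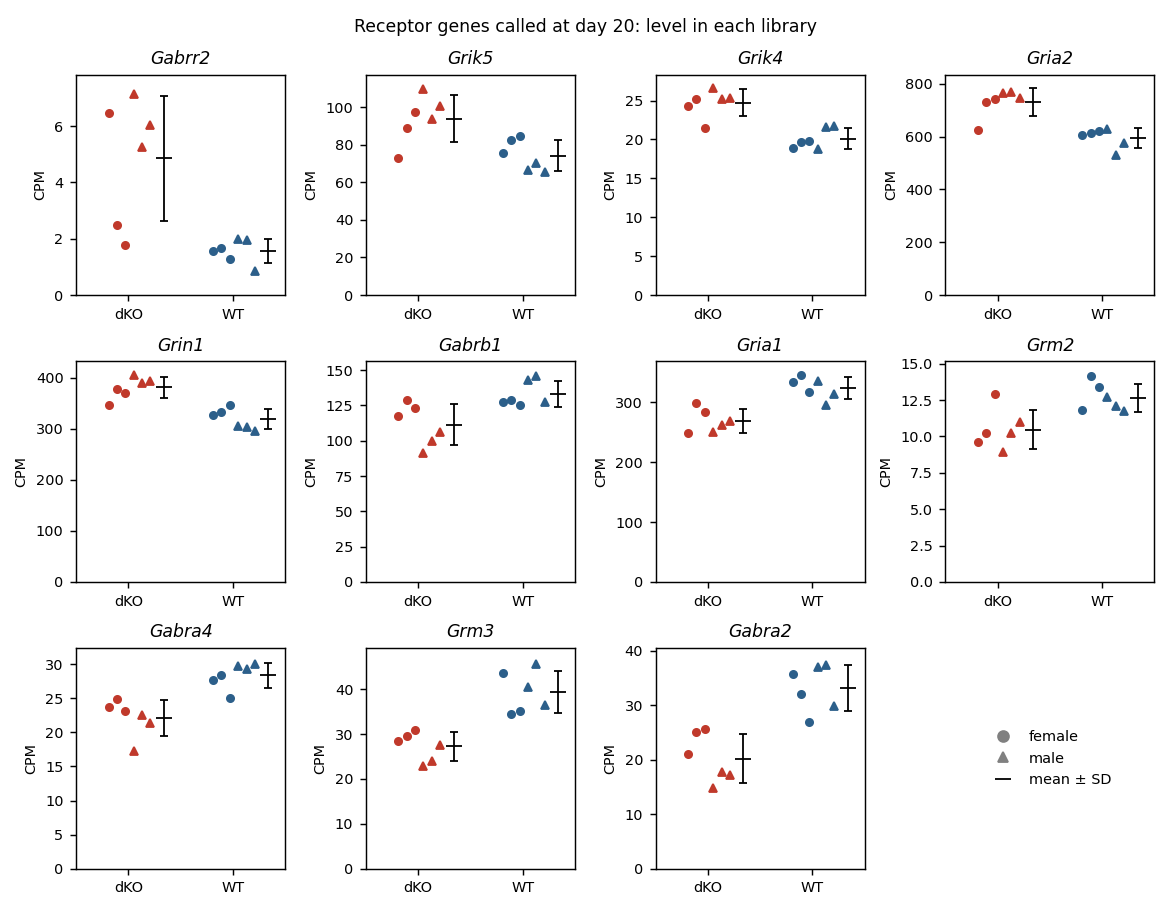
Level (CPM, vertical axes from 0) of the 11 receptor genes called at day 20 in each of the 6 dKO and 6 WT libraries; circles are females, triangles males, and the bar beside each group is the mean ± SD. Gabra2 libraries of dKO lie at 14.7 to 25.6 CPM, below all WT libraries at 26.9 to 37.4 CPM, and Gabrr2 is spread from 1.78 to 7.15 CPM in dKO, against 0.859 to 2.01 CPM in WT.

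Markers of other cell types also differed at day 20, beside a background of 38.0% of all genes called (18.8% higher and 19.2% lower). The share of markers called was below that background in the oligodendrocyte, oligodendrocyte precursor, immature neuron, general neuron, thalamic and interneuron lists. Of 6 microglial markers 5 were lower in dKO, with a sum of 90.7 to 139 CPM in dKO against 150 to 178 CPM in WT, and of 6 endothelial markers 5 were lower, with a sum of 130 to 167 CPM in dKO against 197 to 211 CPM in WT. Oligodendrocyte precursor markers, a cell type that also expresses Grm3 and several GABA-A subunits, summed to 296 to 448 CPM in dKO and 441 to 521 CPM in WT, with 1 of 6 higher and 1 lower. The lower one was Gpr17 (medians of 81.6 CPM in dKO and 180 CPM in WT, log2 change -1.09, edgeR adjusted p = 1.15e-07). Pdgfra was higher (medians of 79.1 CPM in dKO and 61.7 CPM in WT, log2 change 0.34, adjusted p = 0.0277). Cspg4, Olig1, Olig2 and Neu4 did not pass. Oligodendrocyte markers summed to 11866 to 15111 CPM in dKO and 15163 to 19686 CPM in WT, without overlap, with 2 of 8 lower. Astrocyte markers summed to 2699 to 2935 CPM in dKO and 2908 to 3076 CPM in WT, with 2 of 8 higher and 3 lower, and immature neuron markers to 208 to 273 CPM in dKO and 282 to 319 CPM in WT, with 2 of 8 lower. Sums of some neuron lists were shifted as well. General neuron markers summed to 3750 to 4514 CPM in dKO and 4343 to 4840 CPM in WT, with 2 of 10 lower. Thalamic neuron markers summed to 167 to 216 CPM in dKO and 207 to 226 CPM in WT, with 1 of 7 lower. Striatal projection neuron markers, at 166 to 175 CPM in dKO and 135 to 152 CPM in WT, and forebrain inhibitory interneuron markers, at 848 to 1027 CPM in dKO and 625 to 838 CPM in WT, had higher sums in dKO without overlap, with 2 of 8 higher and 2 lower in the striatal list and 1 of 7 tested genes higher in the interneuron list. The median log2 change was -0.12 over the 8 striatal markers and 0.0008 over the 7 tested interneuron markers, so the sums do not describe the typical marker. The part of these differences in the receptor results was not tested.

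The start regions of 6 of the called genes are shown because 3 of them (Gabra2, Gabra4 and Gabrb1) fell together and lie next to each other on chromosome 5, and the other 3 (Gabrr2, Gria2 and Grin1) rose. Each is 300 bases from RefSeq on GRCm38.p6, from 250 bases before to 50 after the annotated start, read 5′ to 3′ on the strand of the gene. The windows are chr5:71095800-71096099 (minus strand) for Gabra2, chr5:71658259-71658558 (minus) for Gabra4, chr5:71657671-71657970 (plus) for the more upstream listed start of Gabrb1, chr4:33062862-33063161 (plus) for Gabrr2, chr3:80802786-80803085 (minus) for Gria2 and chr2:25319138-25319437 (minus) for Grin1. Capitals mark exact matches, on either strand, to the Sp1 box GGGCGG, the TATA box TATAAA, the cAMP response element core TGACGT, the glucocorticoid receptor half-site AGAACA or the EGR consensus GCGTGGGCG. The EGR consensus followed by a G would also hold the Sp1 box.
Gabra2: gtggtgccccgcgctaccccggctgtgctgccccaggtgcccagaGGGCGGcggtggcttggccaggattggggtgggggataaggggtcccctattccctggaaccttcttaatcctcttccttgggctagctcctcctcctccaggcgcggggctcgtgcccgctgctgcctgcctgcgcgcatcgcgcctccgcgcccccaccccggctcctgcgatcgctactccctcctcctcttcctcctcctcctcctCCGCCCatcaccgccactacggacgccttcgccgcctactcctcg
Gabra4: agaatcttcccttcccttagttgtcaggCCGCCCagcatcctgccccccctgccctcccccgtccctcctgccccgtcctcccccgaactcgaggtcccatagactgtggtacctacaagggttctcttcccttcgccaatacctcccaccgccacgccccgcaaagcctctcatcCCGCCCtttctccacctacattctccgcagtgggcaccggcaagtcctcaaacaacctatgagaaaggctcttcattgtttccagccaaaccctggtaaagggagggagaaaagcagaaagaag
Gabrb1: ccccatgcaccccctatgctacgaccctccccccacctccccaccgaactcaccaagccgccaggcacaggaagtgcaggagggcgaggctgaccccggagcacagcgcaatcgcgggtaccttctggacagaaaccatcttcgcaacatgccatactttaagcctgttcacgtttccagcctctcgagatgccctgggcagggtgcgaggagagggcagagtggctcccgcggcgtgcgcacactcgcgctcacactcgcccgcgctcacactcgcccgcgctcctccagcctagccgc
Gabrr2: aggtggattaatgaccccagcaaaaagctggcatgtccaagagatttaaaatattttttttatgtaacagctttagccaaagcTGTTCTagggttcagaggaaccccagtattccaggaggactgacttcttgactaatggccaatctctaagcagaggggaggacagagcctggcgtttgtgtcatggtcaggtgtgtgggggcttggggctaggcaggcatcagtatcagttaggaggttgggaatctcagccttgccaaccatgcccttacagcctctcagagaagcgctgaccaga
Gria2: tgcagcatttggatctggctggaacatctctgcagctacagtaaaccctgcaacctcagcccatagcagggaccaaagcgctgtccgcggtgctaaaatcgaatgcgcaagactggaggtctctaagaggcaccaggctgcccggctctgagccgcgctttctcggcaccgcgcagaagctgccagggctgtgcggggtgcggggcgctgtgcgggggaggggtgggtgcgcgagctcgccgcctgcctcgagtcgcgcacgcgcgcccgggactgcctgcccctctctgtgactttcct
Grin1: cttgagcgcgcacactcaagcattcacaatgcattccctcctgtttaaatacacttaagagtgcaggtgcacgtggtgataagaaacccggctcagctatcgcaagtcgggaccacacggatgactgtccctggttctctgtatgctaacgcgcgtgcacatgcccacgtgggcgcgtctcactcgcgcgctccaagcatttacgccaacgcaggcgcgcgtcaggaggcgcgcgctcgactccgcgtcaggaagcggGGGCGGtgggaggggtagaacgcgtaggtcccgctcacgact
Gabra2 and Gabra4 each hold the Sp1 box at 2 places and Grin1 at 1, Gabrr2 holds 1 match to AGAACA, and the Gabrb1 and Gria2 windows hold none of the 5. Among all 32851 windows of this length the Sp1 box is in 35.7%, AGAACA in 19.0%, TATAAA in 13.6%, TGACGT in 7.51% and the EGR consensus in 0.612%. The Gabrr2 window has 49.3% G and C with 2 CG dinucleotides, whereas the 5 others have 58.7 to 70.0% with 12 to 33, beside medians of 52.7% and 7 over all windows. The Gabrb1 window lies within the gene body of Gabra4, which is transcribed in the opposite direction.

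Called genes were more numerous in males than in females at day 20, but no receptor gene passed the test of that difference. In males 11 of 44 were called, against a background of 34.6% of all genes, and in females 2 were called (Gabra2 and Gabrr2), against 10.4% (5.17% higher and 5.18% lower). Gabra2 fell by 1.07 on the log2 scale in males (SE 0.11, edgeR adjusted p = 2.59e-07) and by 0.41 in females (SE 0.11, adjusted p = 0.0187). Gabrr2 rose by 1.93 in males (SE 0.38, edgeR adjusted p = 0.000482) and by 1.27 in females (SE 0.39, adjusted p = 0.0431). In males Gabrq, the theta subunit, was also called (log2 change -0.61 ± 0.22 SE, adjusted p = 0.0409), while Grm2 was not. The genotype by sex interaction at day 20 called 0 receptor genes in edgeR (0% of all genes), with 9 at an unadjusted p under 0.05, 1 called by DESeq2 and 0 by limma-voom. The share of all genes at that unadjusted p was not counted. The gene that DESeq2 called was Gabra2, with an interaction of -0.66 on the log2 scale (males minus females, SE 0.15, edgeR adjusted p = 0.0684, and 0.0144 by DESeq2). The male count was 7 without dKO male day 20 replicate 1, and the female count was 0 without WT female day 20 replicate 1 or without WT female day 20 replicate 2.

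At day 10 the calls between genotypes depended on single libraries. With the 11 libraries, 9 of 44 receptor genes rose in dKO and none fell, against a background of 4.99% of all genes (3.23% higher and 1.76% lower). Among them were Gabrg3, Grm3, Grm8, Grm5, Gabrg1, Gabrb1, Grik1 and Grid1. The edgeR count fell to 0 without dKO female day 10 replicate 2, to 0 without dKO male day 10 replicate 2 and to 0 without WT male day 10 replicate 1, where 0.334%, 0.0666% and 0.424% of all genes were called. With both of those dKO libraries left out, an alternative chosen after the data were seen, 0 receptor genes and 11 of 22540 genes in all (0.0488%) were called. The count of receptor genes was 27 without dKO male day 10 replicate 1 (20.0% of all genes), 21 without WT male day 10 replicate 3 (11.03%) and 17 without dKO female day 10 replicate 1 (9.55%). It was 3 without dKO female day 10 replicate 3 (0.787% of all genes), 5 without WT female day 10 replicate 1 (1.97%) and 4 without WT female day 10 replicate 2 (2.01%). Fits without dKO male day 10 replicate 1 or replicate 2 leave 1 library in that group, which is then assumed to vary like the other groups, and without replicate 1 that library is the one that stood apart. Markers of other cell types moved beside these calls. Of 8 oligodendrocyte markers 4 were lower in dKO at day 10, with a median log2 change of -0.60 and sums of 3974 to 6230 CPM in dKO and 5852 to 11842 CPM in WT, and of 8 striatal projection neuron markers 3 were higher, with sums of 103 to 150 CPM in dKO and 90.3 to 121 CPM in WT. Their part in the receptor calls was not tested.

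Grm5, a group I receptor coupled to Gq and abundant in the young brain, was 244, 288 and 270 CPM in dKO females and 257 and 415 CPM in dKO males, against 213, 210 and 194 CPM in WT females and 171, 244 and 272 CPM in WT males. The highest value belongs to the male library that stood apart. The log2 change was 0.47 ± 0.11 (SE, edgeR adjusted p = 0.0298) with all libraries and 0.23 (adjusted p = 0.536) without the pair. Gabrg3, a gamma subunit gene, was 38.4, 42.0 and 44.9 CPM in dKO females and 45.7 and 87.9 CPM in dKO males, against 28.6, 32.3 and 32.0 CPM in WT females and 21.7, 39.2 and 45.1 CPM in WT males. Again 1 dKO male library held the top value, and the log2 change was 0.69 ± 0.16 (SE, edgeR adjusted p = 0.0295) with it and 0.41 (adjusted p = 0.513) without the pair. Grm3 was 65.7, 115 and 94.6 CPM in dKO females and 70.5 and 112 CPM in dKO males, against 62.5, 56.0 and 49.2 CPM in WT females and 50.5, 73.1 and 78.2 CPM in WT males. Its 2 highest values were those of the pair, and its log2 change was 0.58 ± 0.15 (SE, edgeR adjusted p = 0.0385), and 0.29 (adjusted p = 0.587) without them.

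Gabra6 shows the same libraries from the other side. It was 142, 10.4 and 51.8 CPM in dKO females and 150 and 30.4 CPM in dKO males, against 173, 169 and 185 CPM in WT females and 269, 125 and 63.7 CPM in WT males. The lowest 2 values were again those of the pair, beside their low granule neuron marker sums, and the difference did not pass the test. Within females and within males at day 10, edgeR called 0 receptor genes (backgrounds of 0.319% of all genes in females, 0.143% higher and 0.175% lower, and 0.0139% in males, 0.00923% higher and 0.00462% lower), with 18 and 16 at an unadjusted p under 0.05. DESeq2 called 4 in females and 8 in males, and limma-voom 0 in each. The genotype by sex interaction at day 10 called 0 in edgeR (0% of all genes), with 9 at an unadjusted p under 0.05, and 0 by DESeq2 and by limma-voom. The shares of all genes at an unadjusted p under 0.05 were not counted, so the counts at that threshold have no background.

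**Figure D2:**
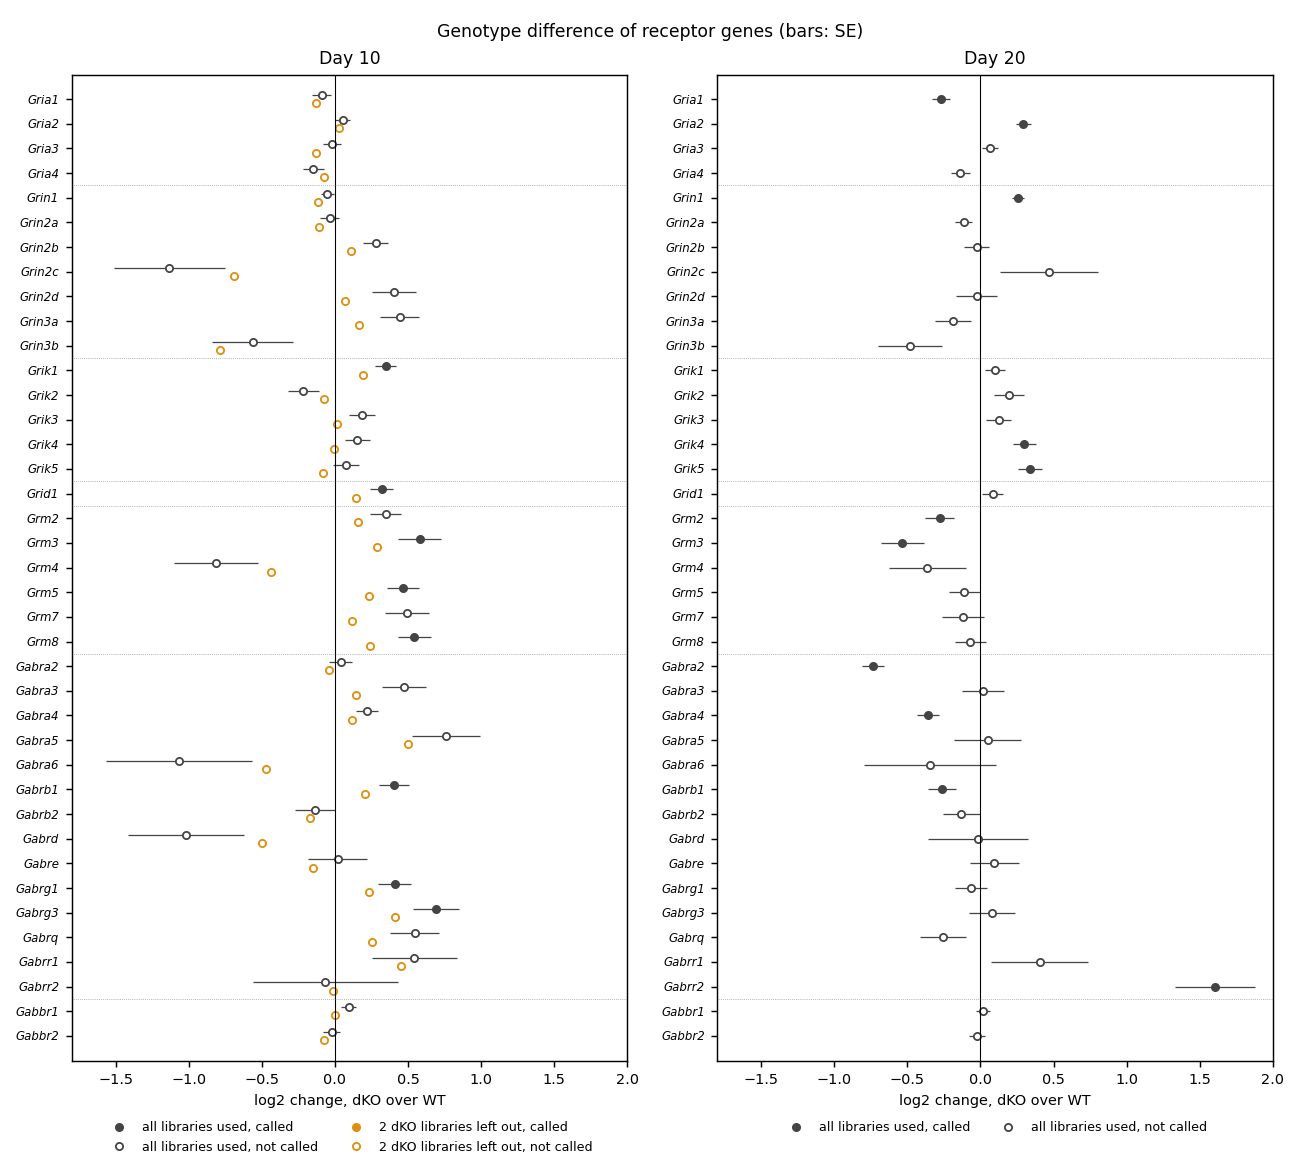
Log2 change of dKO over WT (horizontal axes) for 39 of the 44 tested receptor genes at day 10, with all libraries used (dark) and with the 2 dKO libraries that stood apart left out (orange), and at day 20; filled points are called, open points are not, bars are SE where shown, and dotted lines part the receptor classes. At day 10 the filled points become open without the 2 libraries, and at day 20 Gabra2 at -0.74 and Gabrr2 at 1.60 lie farthest from 0 in their directions.

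Between day 10 and day 20 receptor genes changed in both genotypes. In dKO 18 rose and 20 fell of 44, against a background of 61.6% of all genes called (30.4% higher and 31.2% lower), and in WT 15 rose and 11 fell, against 50.4% (25.5% higher and 24.9% lower). Of the 44, 12 rose in both genotypes, 11 fell in both, 2 moved in opposite directions, 13 were called in dKO alone, 1 in WT alone and 5 in neither. The shares of all genes in these classes were not counted, so the counts have no background. They do not test a difference between the genotypes. With the 2 dKO day 10 libraries left out, 31 receptor genes were called in dKO, against 53.6% of all genes in that fit, and 29 of the 31 were among the 38.

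Among NMDA receptor subunits Grin2b fell and Grin2a and Grin2c rose in both genotypes. Grin2b fell by 1.28 in dKO (SE 0.09, edgeR adjusted p = 1.12e-10) and by 0.98 in WT (SE 0.08, adjusted p = 5.6e-09) on the log2 scale, with no overlap between days. Its level was 196 ± 21.6 CPM in dKO and 199 ± 9.63 CPM in WT at day 20, against 474 ± 63.3 CPM in dKO and 393 ± 52.5 CPM in WT at day 10 (SD, n = 6, 6, 5 and 6). Grin2a rose by 0.41 in dKO (SE 0.06, adjusted p = 8.51e-06) and by 0.49 in WT (SE 0.06, adjusted p = 4.17e-07). Grin2c rose by 2.66 in dKO (SE 0.40, edgeR adjusted p = 2.64e-05) and by 1.06 in WT (SE 0.34, adjusted p = 0.0167). Without the 2 dKO day 10 libraries that stood apart it rose by 2.20 in dKO and by 1.03 in WT (adjusted p = 0.00043 and 0.00677). At day 10 Grin2c spread widely, at 69.9, 14.8 and 25.1 CPM in dKO females and 73.4 and 25.3 CPM in dKO males, against 96.9, 82.8 and 111 CPM in WT females and 157, 71.1 and 39.2 CPM in WT males. Grin3a, a subunit of juvenile receptors that lowers calcium entry, fell by 0.95 in dKO and by 0.32 in WT (edgeR adjusted p = 5.69e-06 and 0.0386). The WT call of Grin3a was lost in 10 of the 23 fits that each left out 1 library, up to an adjusted p of 0.114 without WT male day 10 replicate 3.

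The AMPA subunit Gria1 rose by 0.38 in dKO and 0.56 in WT and Gria3 by 0.61 in dKO and 0.53 in WT (SE 0.06 to 0.07, edgeR adjusted p at most 2.69e-05), whereas Gria2 rose by 0.18 in dKO (adjusted p = 0.00457) and had a log2 change of -0.06 in WT that did not pass. Grm5 fell by 1.54 in dKO and by 0.96 in WT (SE 0.11 each, edgeR adjusted p = 8.83e-10 and 4.09e-07), and Grm3 by 1.75 in dKO and by 0.64 in WT (SE 0.15 and 0.14, adjusted p = 2.16e-08 and 0.00115). Grm4, the group III receptor of granule cell terminals, rose by 1.33 in dKO and by 0.89 in WT (SE 0.29 and 0.26, adjusted p = 0.000829 and 0.0105). Without the 2 dKO day 10 libraries that stood apart Grm4 rose by 0.94 in dKO and by 0.86 in WT (adjusted p = 0.0122 and 0.00337). Among kainate receptors Grik1 fell in both genotypes, by 0.71 in dKO and by 0.47 in WT.

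Gabra2 fell by 1.13 in dKO and by 0.36 in WT (edgeR adjusted p = 6.23e-11 and 0.000359), and Gabra5 by 1.46 in dKO and by 0.75 in WT (adjusted p = 5.04e-05 and 0.0116). Gabra6 and Gabrd rose by 1.75 and 1.81 in dKO (SE 0.51 and 0.40, edgeR adjusted p = 0.00733 and 0.00101). In WT they had changes of 1.04 and 0.81 that did not pass, with day 10 levels of 63.7 to 269 CPM for Gabra6. The sizes depended on the day 10 libraries with low granule neuron markers. Without the pair Gabra6 and Gabrd rose by 1.14 and 1.26 in dKO (adjusted p = 0.0267 and 0.00674) and, in WT, by 1.01 and 0.78, which then passed (adjusted p = 0.0101 and 0.0163). Without dKO male day 10 replicate 1 they rose by 2.54 each in dKO. Gabrr2 rose in both genotypes, by 3.59 in dKO (SE 0.39, edgeR adjusted p = 7.17e-08) and by 1.93 in WT (SE 0.35, adjusted p = 0.000101), with 3 to 14 counts in dKO and 3 to 22 counts in WT libraries at day 10. The other tested Gabrr gene, Gabrr1, fell by 1.21 in dKO and by 1.07 in WT (adjusted p = 0.0021 and 0.00583). Neither GABA-B gene was called in either genotype, with log2 changes between -0.01 and 0.07 (SE 0.05 to 0.06).

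**Figure D3:**
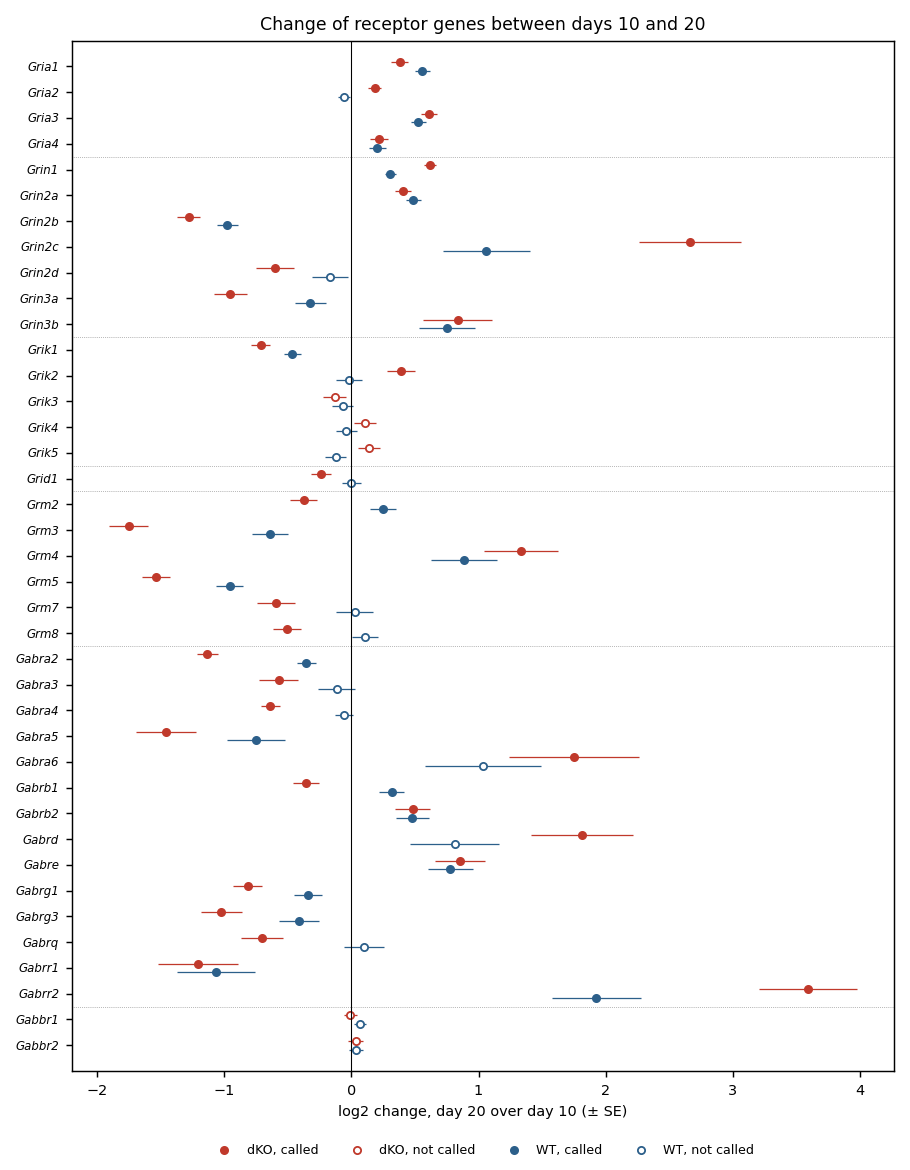
Log2 change from day 10 to day 20 (day 20 over day 10, ± SE) of 39 of the 44 tested receptor genes in dKO (red) and WT (blue); filled points are called, open points are not, and dotted lines part the receptor classes. Grin2b, Grm5 and Gabra5 lie left of 0 and Grin2c and Gabrr2 right of 0 in both genotypes, with Grin2b at -1.28 in dKO and -0.98 in WT.

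The change from day 10 to day 20 itself differed between genotypes (genotype by day interaction) for 18 of 44 receptor genes, 5 with a higher and 13 with a lower change in dKO, against a background of 28.3% of all genes (13.6% higher and 14.7% lower). Without the 2 dKO day 10 libraries that stood apart 10 receptor genes were called (background 19.9%), and 8 of them were among the 18: Gabra2, Gabra4, Gabrb1, Grm2, Grm3 and Grm8, lower, and Gria2 and Grin1, higher. The other 2 were Gria3 and Grik5, higher. Leaving out dKO male day 10 replicate 2 alone gave 11.

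Gabra2 had an interaction of -0.78 on the log2 scale (SE 0.11, edgeR adjusted p = 3.07e-05), and of -0.70 (adjusted p = 0.000175) without the 2 libraries. Its day 10 levels overlapped, at 40.4 to 48.8 CPM in dKO and 39.7 to 44.5 CPM in WT. Grm3 had the lowest interaction, at -1.11 (SE 0.21, adjusted p = 0.000877), and -0.82 (adjusted p = 0.00495) without the pair. Gabrb1 and Grm2 were the genes that fell with day in dKO and rose in WT. Their falls in dKO were not called without dKO male day 10 replicate 2 (adjusted p = 0.0777 and 0.111), and the rise of Grm2 in WT was lost in 9 fits that left out 1 library, up to an adjusted p of 0.113 without WT female day 10 replicate 1. Gabrb1 had an interaction of -0.67 (SE 0.14, adjusted p = 0.00158, and -0.47 with 0.00966 without the pair). Grm2 had one of -0.62 (SE 0.15, adjusted p = 0.00295, and -0.44 with 0.0269 without the pair). Grin1 had 0.31 (SE 0.06, edgeR adjusted p = 0.00087) and Gria2 0.24 (SE 0.07, adjusted p = 0.0159), and 0.37 and 0.27 without the pair. Grin2c and Gabrr2 had interactions of 1.60 and 1.67 with all libraries (SE 0.51 and 0.56, adjusted p = 0.0274 and 0.0307), and of 1.16 and 1.62 without the pair, where neither was called (adjusted p = 0.0984 and 0.111).

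Subunit switches were also followed as log2 ratios of counts within each library for 10 pairs, each with the subunit described as later over the one described as earlier, so that a change common to both genes cancels. All 10 ratios changed with day in dKO and in WT, 9 upward and 1, Gria2 to Gria1, downward (exact two-sided permutation tests over libraries, adjusted over the 40 tests of 10 pairs in 4 comparisons). The smallest p these designs allow is 0.00433 for 5 against 6 libraries and 0.00216 for 6 against 6. Grin2a to Grin2b was 0.02 ± 0.09 in dKO and 0.11 ± 0.11 in WT at day 20, against -1.69 ± 0.27 in dKO and -1.35 ± 0.29 in WT at day 10 (SD, n = 6, 6, 5 and 6). The days did not overlap in either genotype, with differences of 1.72 in dKO and 1.46 in WT (adjusted p = 0.0102 each, exact permutation). Grin2c to Grin2b rose by 4.24 in dKO and 2.16 in WT (adjusted p = 0.0102 each, exact permutation). Without the 2 dKO day 10 libraries that stood apart its rise in dKO was 3.55 (adjusted p = 0.0397, exact permutation).

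Between genotypes, 3 of the 10 ratios were higher in dKO at day 20, and the other 7 did not pass. Gria2 to Gria1 was 1.44 ± 0.13 in dKO and 0.88 ± 0.05 in WT (SD, n = 6 each), without overlap, a difference of 0.56 (adjusted p = 0.0102, exact permutation). Between the days this ratio fell by 0.21 in dKO and by 0.62 in WT. Grin2c to Grin2b was 0.47 ± 0.29 in dKO and -0.03 ± 0.28 in WT, a difference of 0.50 (adjusted p = 0.018, exact permutation). That difference was 0.94 in males and 0.05 in females, where 3 against 3 libraries cannot fall below an exact p of 0.1, and the sexes were not tested against each other.

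At day 10 only Grin3b to Grin3a was called, at -7.24 ± 0.24 in dKO and -6.38 ± 0.51 in WT (SD, n = 5 and 6), a difference of -0.86 (adjusted p = 0.0151, exact permutation). It was -0.87 (adjusted p = 0.0397) without the 2 libraries that stood apart, -0.71 (adjusted p = 0.139) with counts from both strands, and 0.14 (adjusted p = 0.998) with the library of 45964 counts put back. Grin3b shares exon sequence with Tmem259 and lay at 0.652 to 1.12 CPM in dKO and 0.689 to 1.90 CPM in WT at day 10.

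**Figure D4:**
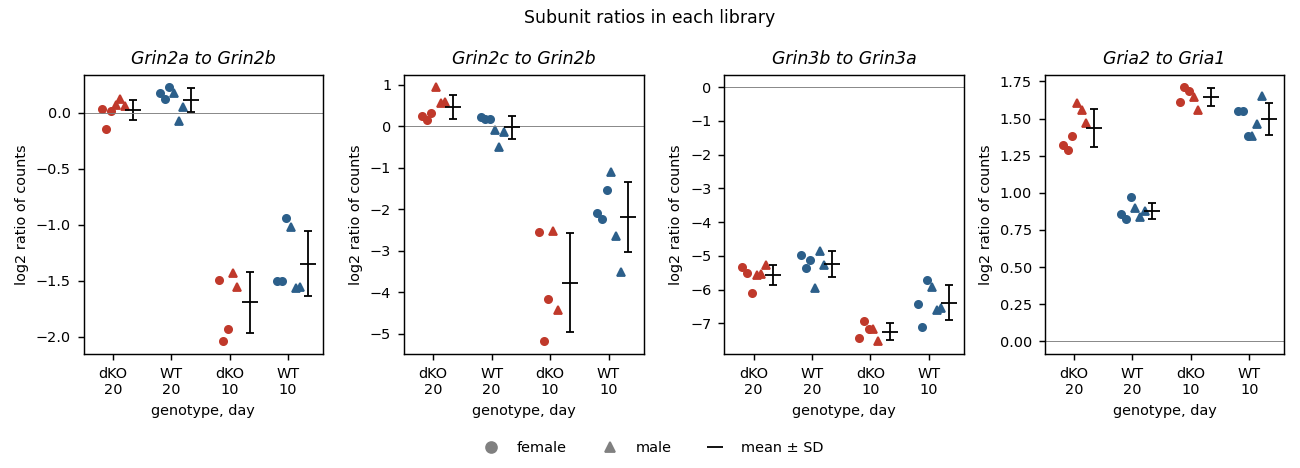
Log2 ratio of counts (vertical axes) for 4 of the 10 subunit pairs in every library, by genotype (dKO red, WT blue) and day, with day 20 on the left; circles are females, triangles males, and bars are the mean ± SD. At day 20 the Gria2 to Gria1 ratios of dKO, with a mean of 1.44, lie above all WT ratios, with a mean of 0.88, while the Grin2a to Grin2b ratios of both genotypes lie near 0.

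Most GABA-A receptor genes lie in clusters, and those on chromosomes 5 and X are described here. On chromosome 5 (Gabrg1, Gabra2, Gabra4 and Gabrb1, from 70751047 to 72149037, GRCm38), 3 of 4 fell at day 20 in dKO relative to WT, beside 38.0% of all genes called, and all 4 had a lower interaction with day, beside 28.3%. Gabrg1 was the exception at day 20, with a log2 change of -0.07 ± 0.11 (SE). Its interaction was not called without the pair (-0.30, adjusted p = 0.18) and was lost in 9 fits that left out 1 library, and the Gabrb1 call at day 20 was lost in 9 such fits. The 2 clusters not described, of 4 and 3 genes, held 0 calls at day 20. On the X chromosome (Gabre, Gabra3 and Gabrq) Gabre rose with day in both genotypes, by 0.85 in dKO and by 0.78 in WT, and Gabra3 and Gabrq fell in dKO and were not called in WT. The fall of Gabra3 in dKO was -0.57 on the log2 scale with all libraries, -0.31 (adjusted p = 0.0587) without dKO male day 10 replicate 2 and -0.26 (adjusted p = 0.116) without the pair, and its interaction with day was not called. The interaction of Gabrq was called with all libraries and not without the pair (-0.51, adjusted p = 0.109). Clustered genes are few and were grouped with these results known, so the counts are a description.

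**Figure D5:**
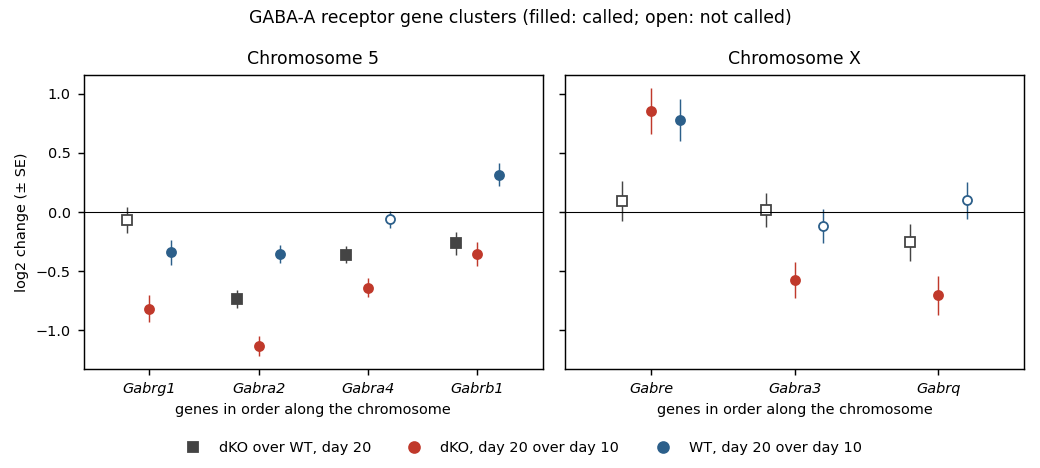
Log2 changes (± SE) of GABA-A receptor genes in 2 clusters, in their order along each chromosome: dKO over WT at day 20 (squares), day 20 over day 10 in dKO (red circles) and in WT (blue circles), filled where called. On chromosome 5 the squares of Gabra2, Gabra4 and Gabrb1 are filled and below 0, at -0.74, -0.36 and -0.27, and on the X chromosome the squares are open.

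Partners of these receptors were counted at day 20 beside the same background of 38.0%. Of 24 AMPA and kainate receptor auxiliary proteins 1 rose and 5 fell in dKO. Frrs1l, needed to assemble AMPA receptors, was 247 CPM in dKO and 335 CPM in WT (log2 change -0.45 ± 0.13 SE, edgeR adjusted p = 0.00957), and the AMPA auxiliary subunit Cacng5 was 21.2 CPM in dKO and 26.8 CPM in WT (log2 change -0.34 ± 0.07 SE, adjusted p = 0.000464). Of 26 excitatory postsynaptic scaffold genes 3 rose and 1 fell. Homer1, which links group I metabotropic receptors to the postsynaptic density, fell by 0.46 on the log2 scale (SE 0.05, edgeR adjusted p = 7.08e-07), while Homer2 rose by 0.35 (SE 0.10, adjusted p = 0.0118) and Dlgap3 by 0.47 (SE 0.05, adjusted p = 5.84e-07). Of 12 delta receptor partners 1 rose and 1 fell.

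On the inhibitory side, 2 of 15 scaffold and receptor partner genes rose and 4 fell. Kctd12 and Kctd8, auxiliary subunits of GABA-B receptors, fell by 0.54 and 0.18 (SE 0.07 each, edgeR adjusted p = 2.18e-06 and 0.0398), beside Gabbr1 and Gabbr2 levels that did not pass. Plcl1, which binds GABARAP and GABA-A receptors, rose by 0.40 (SE 0.07, adjusted p = 0.000144). Of 15 genes for glutamate synthesis, release and uptake 1 rose and 2 fell: glutamine synthetase, Glul, was 1235 CPM in dKO and 821 CPM in WT (log2 change 0.59 ± 0.08 SE, edgeR adjusted p = 1.62e-05), and the glutamine transporter Slc38a3 was 46.7 CPM in dKO and 71.1 CPM in WT (-0.61 ± 0.05 SE, adjusted p = 2.13e-08). Of 11 genes for GABA handling 1 rose and 1 fell, and the GABA transaminase Abat fell by 0.18 (edgeR adjusted p = 0.00821). Of 7 glycine receptor and transporter genes 2 fell, Glrb by 0.32 and Slc6a9 by 0.36 (adjusted p = 0.000981 and 0.000263).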

How the data were processed

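Per the labels, libraries were made from back left brain with a stranded mRNA kit. The submitters' processing notes name STAR 2.5.2b, HTSeq and GRCm38.p5; the annotation the authors counted against is not given in the sources used here. The authors deposited a table of raw gene counts per library with 3 count columns, and the reverse-strand counts were used, since the forward counts were 5.22 to 7.46% of them. Reads in no feature were 41.7 to 47.5% and stayed out of library sizes. Gene names and exon lengths came from GENCODE M21, which matched 50462 of 50686 IDs.

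Libraries with at least 1 M gene counts were used (23 of 24). CPM are counts per 1000000 gene counts, on library totals multiplied by edgeR's TMM factors (0.945 to 1.08). Tests were edgeR 4.0.16 quasi-likelihood tests in R 4.3.3 with TMM scaling, edgeR's filterByExpr, a mean for each of the 8 groups and Benjamini-Hochberg adjustment over all genes tested, and a gene was called where its adjusted p was below 0.05. Day and genotype comparisons average the sexes. DESeq2 1.42.0 and limma-voom (limma 3.58.1) were alternatives. Subunit ratios, with 0.5 added to each count, were compared by exact permutation of libraries (two-sided, SciPy 1.17.1). Scripts were tested on simulated data. Counts cover all receptor genes of the rule, but some of these genes, ratios and partner genes are not reported here. The members and lists were chosen with earlier results of these data known. Other alternatives were the scaling, the filter, both strands, the small library, a 1.2-fold threshold, the samples in the fit and leaving out each library. Promoter windows came from RefSeq on GRCm38.p6 and cover 31 of the 46 genes.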

Additional observations from a re-analysis of the deposited data

Results flagged for a closer look

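Single libraries far from the rest of their genotype and day were looked for in receptor genes and ratios, by the gap to the nearest library as a share of the range (Dixon's 95% limit), which chance passes in about 1 of 20 groups. Of 168 groups looked at, 13 passed, so several of the values below may be chance. Genes flagged in the same library are not independent. In dKO male day 10 replicate 2, 8 genes were far above the 4 other dKO libraries of that day: Gabrb1 at 194 CPM, Gabrg1 at 91.5 CPM, Gabrg3 at 87.9 CPM, Grid1 at 96.6 CPM, Grin3a at 212 CPM, Grm2 at 19.2 CPM, Grm5 at 415 CPM and Grm8 at 55.1 CPM. This is the library with 0 counts of Hoxb3 and Hoxb5, and the part of its regional makeup in these values was not tested. In WT male day 20 replicate 2, Gabrb2 was lowest at 221 CPM, where the other WT libraries were at 260 to 273 CPM. In dKO female day 20 replicate 1, Gria2 was lowest at 625 CPM, where the others were at 729 to 770 CPM, and Grik2 at 306 CPM, where the others were at 377 to 411 CPM. Grin1 was lowest in WT female day 10 replicate 2, at 235 CPM, and the Grin3b to Grin3a log2 ratio was lowest in dKO female day 20 replicate 3, at -6.11.

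The change from day 10 to day 20 differed between dKO and WT by the edgeR interaction test in 18 of 44 genes. The background was 28.3% of all genes called (13.6% higher and 14.7% lower). The log2 interaction was negative, a lower change in dKO, for 13 genes, among them Grm3 (-1.11), Gabrq (-0.80), Gabra2 (-0.78), Gabrb1 (-0.67), Grin3a (-0.63), Grm2 (-0.62), Grm7 (-0.62), Grm8 (-0.61), Gabrg3 (-0.61), Grm5 (-0.58), Gabra4 (-0.58) and Gabrg1 (-0.47). It was positive for Gria2 (0.24), Grin1 (0.31), Grik2 (0.41), Grin2c (1.60) and Gabrr2 (1.67). Leaving out both dKO day 10 libraries that stood apart kept 8 of the 18 calls, in a fit that called 19.9% of all genes.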

How the results depend on the processing

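No called receptor gene turned its direction under any alternative run. The share of all genes called under the same setting is given in brackets. At day 20 the 11 calls (38.0%) became 2 with a 1.2-fold threshold (13.4%) and 22 when only the groups compared were fitted (47.5%). The 9 day 10 calls (4.99%) became 4 without a filter (2.42%), 20 in DESeq2 (9.72%), 19 in limma-voom (8.57%), 0 with the 1.2-fold threshold (0.0369%), 0 with only the groups compared (0.0301%) and 0 without both dKO libraries that stood apart (0.0488%), an alternative chosen after seeing the data. In females DESeq2 called 4 at day 10 (3.64%, edgeR 0), and the 2 day 20 calls (10.4%) became 1 with both strands (9.04%), 0 with the 1.2-fold threshold (2.28%) and 7 with only the groups compared (20.6%). In males the 0 calls at day 10 (0.0139%) became 2 without a filter (0.415%) and 8 in DESeq2 (2.64%), and the 11 at day 20 (34.6%) became 5 with the 1.2-fold threshold (16.2%) and 19 with only the groups compared (44.4%). The 18 genotype by day calls (28.3%) became 11 without a filter (13.2%), 6 with the 1.2-fold threshold (9.65%) and 10 without the pair (19.9%). Genotype by sex at day 20 gave 1 call without a filter (0.454%), 1 in DESeq2 (1.60%) and 1 without the pair (0.563%). The 26 WT calls by day (50.4%) became 15 with the 1.2-fold threshold (26.4%). The Grin3b to Grin3a difference at day 10 turned to 0.14 (adjusted p = 0.998, exact permutation) with the library of 45964 counts. The causes were not tested.

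Leaving out 1 library at a time gave 9 to 11 calls at day 20, 0 to 27 at day 10, 0 to 6 in females and 0 to 19 in males at day 10, 0 to 3 in females and 7 to 13 in males at day 20, 11 to 25 for genotype by day, 0 to 1 and 0 to 8 for genotype by sex at day 20 and day 10, 22 to 28 in WT and 35 to 39 in dKO by day, and 24 to 30 for the ratios. The highest counts in males (19) and for genotype by sex at day 10 (8) came without dKO male day 10 replicate 1 (19.2% and 8.84% of all genes). That fit leaves 1 library in the group, the one that stood apart, takes its spread from the other groups and compares that library. The highest in females at day 10 (6, with 5.91% of all genes) came without dKO female day 10 replicate 1. The share of all genes called also differed between these fits and is not given for every count. The ranges of counts therefore do not describe receptor genes alone. No paired analysis was possible because the labels number no replicates, and the numbers used here follow accession order and pair nothing. Gabrr1, Gabrr2 and Grin3b values rest on few counts, so their ratios are less precise than those of abundant genes.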
